A study of Mus musculus with 78 samples.

Results

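The data compared here were RNA-seq libraries of mouse embryonic stem cells (mESCs) after 96 h and after 24 h of exposure to dTAG-13, a ligand that drives an FKBP-tagged protein to the proteasome. The comparison was chosen by sample label, 3 libraries at 96 h against 3 libraries at 24 h, so 6 of the 78 samples of the series entered it directly. Its members were all genes, 54446 gene identifiers with a value in every library, of which 17922 passed a filter on low values (3 or more of 15 libraries had to reach 1 TPM, a level scaled for transcript length and sequencing yield) and were tested. Both groups were TRIM28-FKBP mESCs, a V6.5 line derived from picked colonies in which the endogenous Trim28 alleles carry a degron, grown with serum and LIF on gelatin after mouse fibroblast feeder cells had been depleted, and both received 500 nM dTAG-13 renewed daily. They differed by label only in the length of exposure. The same course held 3 libraries each of DMSO-treated cells, of 2 h and of 6 h dTAG-13, which entered the model to share 1 estimate of the spread and are given as reference levels. No DMSO library of 96 h was analysed here, so length of exposure and time in culture cannot be told apart. The labels do not say that replicates were separate cultures, and the p-values then measure only the spread between these libraries.

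TRIM28 has no DNA binding of its own and is guided to retroviral repeats by zinc finger proteins with a KRAB domain. There it acts with SETDB1, a histone methyltransferase, to keep the repeats silent. Embryonic stem cells hold their pluripotent state through a network of transcription factors, among them OCT4 (encoded by Pou5f1), SOX2, NANOG and ESRRB, that act together at clusters of enhancers called super-enhancers. When that network is lost in serum culture, such cells are known to turn on genes of extraembryonic endoderm, trophoblast, mesoderm or neural tissue.

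Levels are given in TPM and differences on the log2(TPM + 0.5) scale, 96 h minus 24 h, with standard errors (SE) and Benjamini-Hochberg adjusted p-values over all 17922 genes from limma. A gene is said to have risen or fallen where the adjusted p was below 0.05 and the difference was over 2-fold on that scale, which understates changes of genes near 0.

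The 96 h libraries stood apart from all others in ways that touch every result below. Between 24 h and 96 h libraries Pearson's r over the tested genes was 0.885 to 0.893, against 0.960 to 0.969 between 24 h and 6 h, 0.986 to 0.994 within 24 h and 0.993 to 0.994 within 96 h. The rRNA gene CT010467.1 on the minus strand of chromosome 17 stood at 14501 to 17710 TPM at 96 h and at 151 to 506 TPM in the 12 other libraries, whereas Gm42418, a lincRNA annotated on the opposite strand of the same interval, stood at 508 to 547 TPM at 96 h and at 2829 to 10348 TPM in the others. In 6 libraries of parental mESCs and neural progenitors from the same series these genes stood at 162 to 459 and at 2387 to 6183 TPM. The processed pseudogenes Gm12481 and Rps12l1 were listed at 0 in each 96 h library and at 99.3 to 137 and 77.6 to 98.0 TPM in the 12 others. In all, 21 genes were listed at 0 in every 96 h library and at 1 TPM or more in each of the 12 others, with 0 such genes for each of the other 4 groups. Of 316 tested genes with over 10% of their exons beneath an opposite-strand gene of over 10 times their level, 29.4% rose and 19.6% fell, and of 1218 such genes with an opposite gene of lower level 12.8% rose and 16.3% fell. Read coverage put the 24 h libraries at 0.348, 1.25 and 1.47 and the 96 h libraries at 1.08, 1.05 and 0.942 times the depth of the first 6 h library. Strand handling of the files is not given in the sources used here, and a difference in how the 96 h libraries were made or mapped cannot be told apart from time. Each gene list is therefore also counted over 8820 protein-coding genes whose exons no other annotated gene covers, called the separate-exon genes below, a choice made after the data were seen. That count bears on overlapping exons alone. Other differences in how the libraries were made or mapped, such as the placing of reads that match several genes, could remain in it.

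A late and broad shift separated the 2 time points. From 24 h to 96 h 2451 genes rose (13.7% of those tested) and 2960 fell (16.5%), and the median difference over all genes was -0.07. Rising genes went from a median of 5.92 to 21.6 TPM and falling genes from 7.48 to 1.62 TPM. Of the rising genes 569 had a mean under 1 TPM at 24 h, and of the falling genes 1207 had a mean under 1 TPM at 96 h. Over 4-fold, 676 genes rose and 676 fell. Over 8-fold, 146 rose and 134 fell. The 3 libraries of 96 h did not overlap those of 24 h in 80.9% of all genes, so separation of libraries alone distinguished little. Among protein-coding genes 2147 of 13847 rose (15.5%) and 1864 fell (13.5%), and among the separate-exon genes 1392 rose (15.8%) and 1242 fell (14.1%). In the interval before, from 6 h to 24 h, 1439 genes changed (8.03%), 1140 upward and 299 downward, or 670 and 587 with each library centred on its median. In bulk RNA a change in the number of cells of a type and a change in RNA per cell cannot be told apart.

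**Figure D1:**
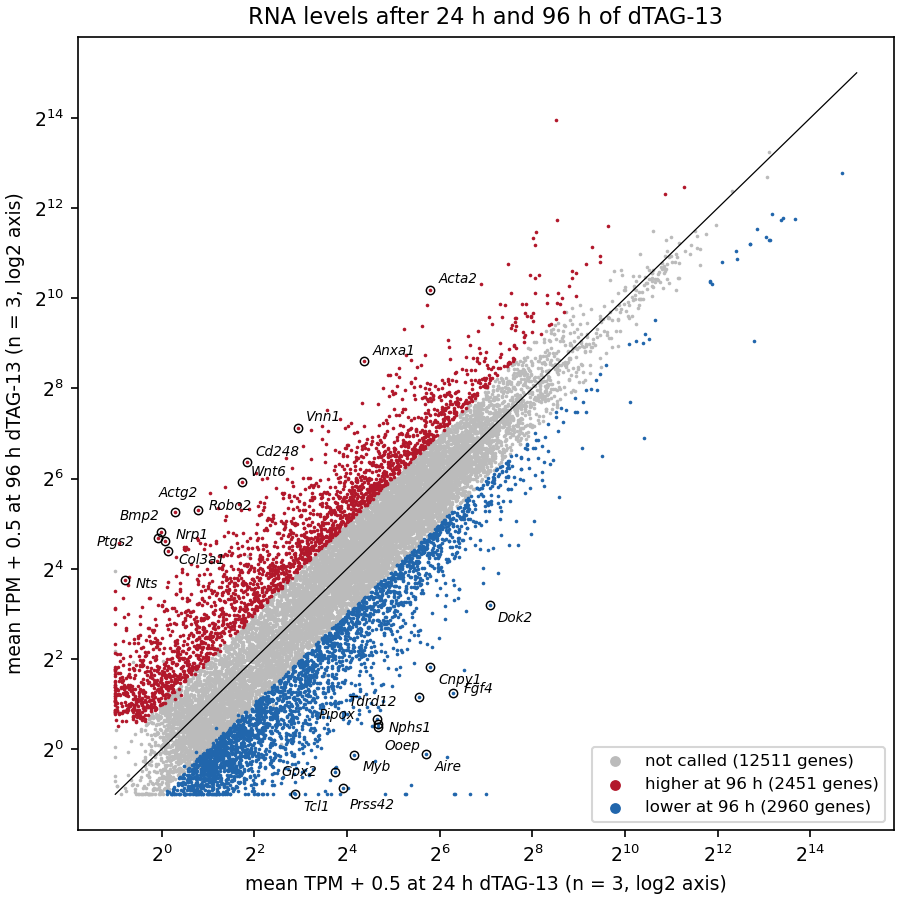
Mean TPM + 0.5 of each tested gene at 24 h (x axis) and at 96 h (y axis), n = 3 libraries each, both on log2 axes, with genes that rose in red, genes that fell in blue, equal levels on the line and the 12 largest protein-coding changes in each direction circled. The 2451 rising genes lie above the diagonal and the 2960 falling genes below it, over the whole range of levels.

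Of all the gene lists, the core pluripotency genes had the lowest median. Of 15 core pluripotency genes 10 fell and 0 rose, with a median of -2.25, and of 18 naive-state genes 14 fell and 1 rose, with a median of -1.82. Over the separate-exon genes 8 of 10 and 12 of 14 fell. The summed level of the core genes was 6849 to 7327 TPM in DMSO, 4274 to 4638 TPM at 24 h and 990.0 to 1108 TPM at 96 h. At 24 h, the start of the interval, these genes were thus lower than in DMSO and still abundant.

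Pou5f1 (chromosome 17, 35506018 to 35510772 on mm10, plus strand), the OCT4 gene, stood at 564, 508 and 537 TPM at 24 h and at 93.7, 97.1 and 116 TPM at 96 h. Its groups did not overlap, and it fell by 2.39 on the log2 scale (SE 0.08, adjusted p = 1.5e-12), from a DMSO mean of 1162 TPM. Sox2, its partner on DNA, went from 146, 126 and 122 to 21.9, 19.7 and 21.2 TPM, a fall with every late library below every early one (log2 -2.61, SE 0.06, adjusted p = 7.4e-14). Nanog had been higher at 24 h than in DMSO, at 208, 198 and 191 TPM against a DMSO mean of 136, and then stood at 30.1, 33.5 and 35.4 TPM. Nanog thus reversed its course between the intervals, at +0.54 from DMSO to 24 h and -2.58 (SE 0.06, adjusted p = 1.2e-13) from 24 h to 96 h. Esrrb, an orphan nuclear receptor of the naive state, read 69.6, 71.7 and 65.3 TPM early and 6.48, 6.91 and 7.14 TPM late. It was 9.45-fold lower.

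Fgf4, the growth factor by which embryonic stem cells signal to themselves through ERK, had the second largest fall of any protein-coding gene. It stood at 79.0, 77.9 and 75.7 TPM at 24 h and at 1.91, 1.77 and 1.89 TPM at 96 h (log2 -5.05, SE 0.05, adjusted p = 8.5e-17). The early and late libraries were far apart and each group was tight. Dppa5a, an RNA-binding protein gene of pluripotent cells, went from 1497, 1263 and 1310 TPM to 111, 118 and 125 TPM, and Tdh, the threonine dehydrogenase on which mouse stem cells depend, from 68.4, 60.0 and 60.1 to 4.60, 4.37 and 6.10 TPM. Utf1 and Tdgf1, the latter a Nodal coreceptor, fell by 2.99 and 3.01 on the log2 scale. Tcl1, a kinase coactivator, read 7.42, 6.20 and 7.02 TPM early and was listed at 0 in all 3 late libraries.

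Not every gene of the network fell. Klf4, a Krüppel-like factor, had already dropped from 44.1 TPM in DMSO to 11.8, 11.7 and 11.1 TPM at 24 h, and read 11.2, 10.6 and 11.0 TPM at 96 h. These libraries overlapped, and the difference was -0.08 (SE 0.04, adjusted p = 0.11). Klf5, a related factor, rose from 35.9, 32.2 and 32.2 to 76.1, 77.3 and 73.5 TPM (log2 1.17). Lin28a and Trim71, RNA regulators of early embryos, did not pass 2-fold, at 289 and 243 TPM and at 84.7 and 79.0 TPM as means of 24 h and 96 h. Dppa2 was at 56.1 and 87.1 TPM (log2 0.63). The embryonic stem cell markers Pou5f1, Sox2, Nanog, Zfp42, Esrrb and Klf4 were all still read at 96 h, at means of 6.84 to 102 TPM.

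**Figure D2:**
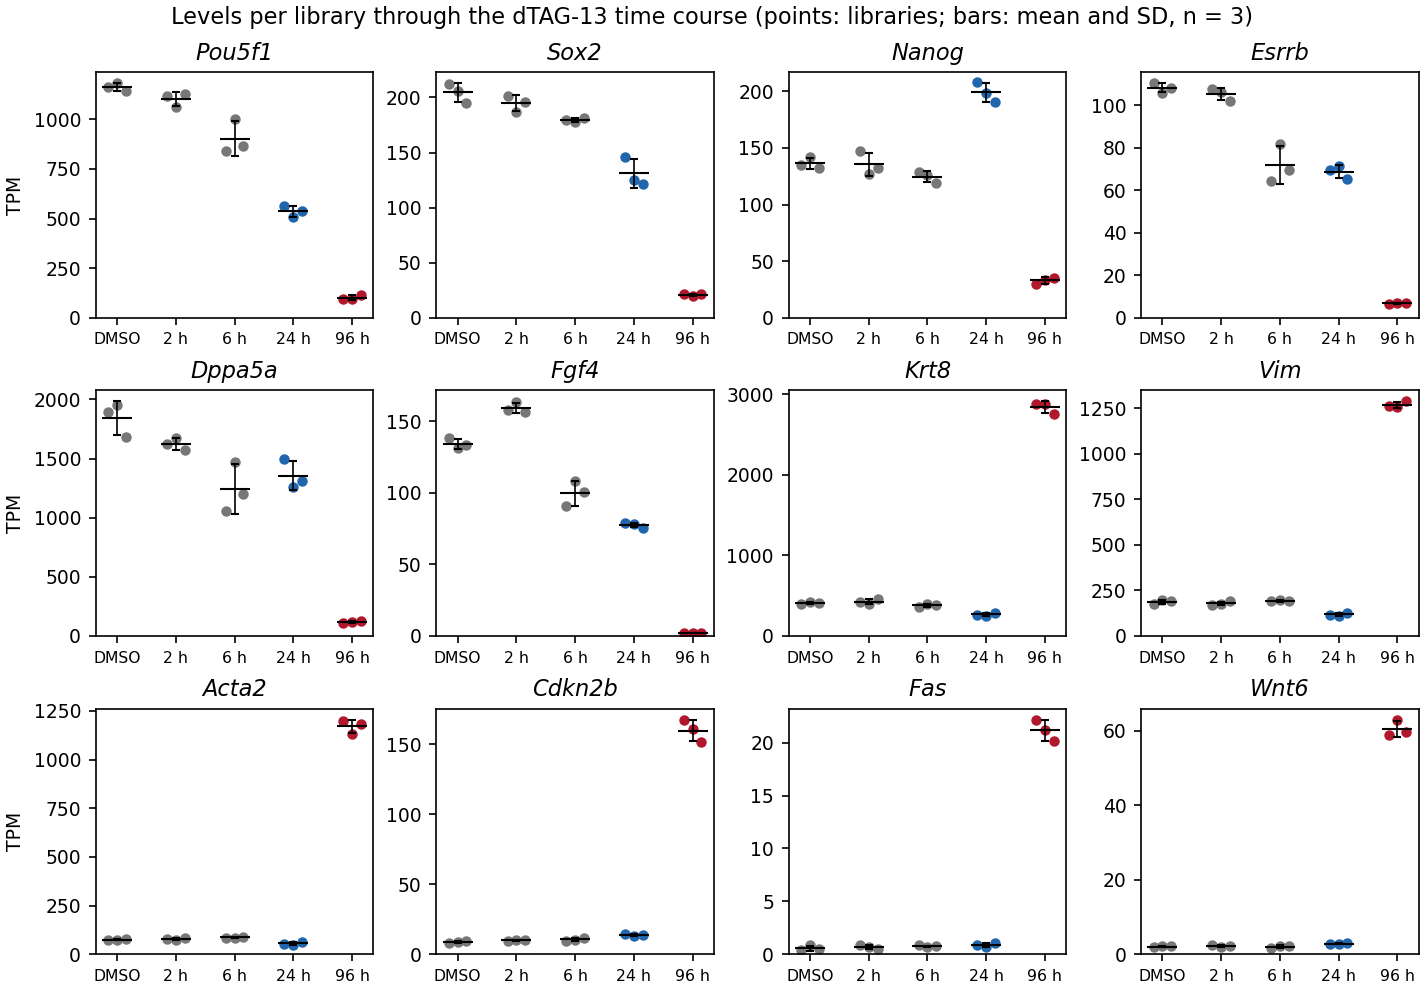
Level of 12 genes in each library of the course (TPM, linear y axes from 0 that differ between genes), with the groups DMSO, 2 h, 6 h, 24 h and 96 h along the x axis, points for libraries and bars for the mean and SD (n = 3). Pou5f1, Sox2, Nanog, Esrrb, Dppa5a and Fgf4 drop between the 24 h and the 96 h libraries, and Krt8, Vim, Acta2, Cdkn2b, Fas and Wnt6 climb in the same interval.

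Genes of the formative and primed epiblast, states that follow the naive state, did not rise as a group. Of 15 tested 3 rose and 7 fell, with a median of -0.91, and of 8 separate-exon members 1 rose and 5 fell. Otx2, a homeodomain factor of the epiblast, fell by 2.19 on the log2 scale to 2.56, 3.04 and 3.04 TPM, and Dnmt3b, a de novo DNA methyltransferase, fell by 1.30. Fgf5, a hallmark of the epiblast, was at 0.308 TPM at 24 h and 0.974 TPM at 96 h as means (log2 0.82). The 3 that rose were Lef1, Sox4 and Cdh2, the last of which encodes N-cadherin and went from 3.49, 3.77 and 4.65 to 65.4, 64.1 and 60.3 TPM.

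A list of 31 genes held TRIM28, its partners, DNA methylation genes and other silencers of retroelements. Of these 10 fell and 1 rose, with a median of -0.64, and 6 of 20 separate-exon members fell. Trim28 itself stood at 369, 365 and 382 TPM at 24 h and at 186, 185 and 204 TPM at 96 h, against a DMSO mean of 624. The groups did not overlap, but at -0.96 (SE 0.05, adjusted p = 5.3e-10) the difference was under 2-fold, as reported, and past it (log2 -1.05) once mitochondrial and rRNA genes were left out of the scaling. The degron acts on the protein, so the transcript was no check of the treatment. Zfp57, the KRAB zinc finger protein that brings TRIM28 to imprinting control regions, fell from 295, 357 and 349 to 74.9, 83.0 and 80.2 TPM (log2 -2.06), and Cbx1, which encodes HP1β, from 230, 229 and 224 to 101, 101 and 104 TPM. The 3 methylcytosine dioxygenases went apart. Tet1 fell from 75.4, 84.0 and 77.6 to 10.2, 8.72 and 9.43 TPM and Tet2 from 22.7, 29.8 and 25.4 to 4.78, 4.70 and 4.05 TPM, whereas Tet3 rose from 11.0, 10.1 and 10.5 to 25.5, 24.6 and 24.8 TPM. Dnmt3l, a cofactor of de novo DNA methylation, fell by 1.44. Aire, which overlaps the start of Dnmt3l on the opposite strand, had the largest fall of any protein-coding gene, from 45.9, 58.8 and 50.7 to 0.319, 0.418 and 0.538 TPM (log2 -5.82).

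Markers of several other cell types rose over the same interval. Among trophoblast markers the count was 10 of 12 tested higher and 0 lower, with a median of 2.58, and 6 of 8 separate-exon members rose. With no filter on low values the median over 14 was 2.29. Krt8 and Krt18, the paired keratins of simple epithelia, were the bulk of the trophoblast sum, which was 669 to 749 TPM at 24 h and 6477 to 6828 TPM at 96 h. Krt8 read 266, 252 and 290 TPM and then 2883, 2887 and 2757 TPM (log2 3.40, SE 0.06, adjusted p = 4.1e-15). Hand1, a factor of giant cells and of extraembryonic mesoderm, went from 4.26, 4.40 and 4.41 to 60.1, 64.5 and 66.5 TPM. These are also genes of tissues other than trophoblast. Of the more restricted markers, Cdx2 rose from 0.428, 0.284 and 0.210 to 2.16, 2.84 and 2.83 TPM and Gata3 from 3.12, 4.08 and 4.01 to 15.9, 17.1 and 16.9 TPM, whereas Elf5 and Tpbpa were at 0.123 and 0.0510 TPM at 96 h and were not tested.

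Extraembryonic endoderm genes were counted by branch. Of 16 parietal endoderm genes 11 rose and 0 fell (median 2.01, and 7 of 10 separate-exon members rose), most of them basement membrane or secretory genes. Col4a1, a collagen IV chain, went from 46.5, 44.5 and 51.3 to 262, 260 and 274 TPM and Sparc, a matrix glycoprotein, from 280, 250 and 267 to 1382, 1425 and 1409 TPM. Lama1, a laminin chain used here as a parietal endoderm marker, instead read 7.53, 7.23 and 8.06 TPM and then 4.70, 4.41 and 4.80 TPM (log2 -0.66). Of 10 tested primitive endoderm regulators 5 rose and 0 fell, and of 6 separate-exon members 2 rose, with Sox17 going from 1.12, 1.78 and 1.30 to 24.4, 23.6 and 20.9 TPM and Gata6 from 1.07, 0.963 and 1.02 to 7.11, 7.60 and 7.04 TPM. Gata4, Sox7 and Pdgfra did not pass 2-fold, at 96 h means of 7.75, 0.661 and 1.40 TPM. The median of the regulators was 0.95 over the 10 tested and 0.80 over 12 with no filter on low values. No visceral endoderm gene rose, 3 of 7 tested fell (3 of 6 with separate exons), and Ttr and Afp were at 0 TPM in the 96 h means.

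Of 14 mesoderm factors 11 were tested, of which 7 rose and 1 fell (median 1.99), and 5 of 9 separate-exon members rose. Several of these were near 0 at 24 h and passed the filter on low values through the 96 h libraries, and with no filter the median over all 14 was 1.35. The rising factors were low to moderate in level, including Prrx1 from 0.227, 0.215 and 0.278 to 8.61, 9.09 and 7.52 TPM, Gata2, Foxf1 and Hand2. Of 15 primitive streak genes 9 were tested, of which 1 rose and 4 fell (4 of 8 with separate exons), and T and Mixl1, which mark the streak itself, were at 4.46 and 4.71 TPM and at 0.905 and 0.950 TPM in the 24 h and 96 h means. Of 18 epithelial and mesenchymal genes 11 rose and 1 fell, with 7 of 12 separate-exon members higher. Vim, the mesenchymal intermediate filament, went from 116, 111 and 127 to 1266, 1257 and 1290 TPM (log2 3.42, SE 0.05, adjusted p = 2e-15), and the transcription factors Zeb2, Snai1 and Twist1 rose by 2.93, 2.01 and 1.61. The epithelial cadherin gene Cdh1 did not fall, reading 352, 347 and 354 TPM and then 655, 641 and 610 TPM (log2 0.86, under 2-fold).

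Genes that mark the fibroblast feeders on which the stock cells were grown rose in the same interval, with 14 of 17 higher, 0 lower and a median of 2.06, and 8 of 11 separate-exon members higher. With no filter on low values the median over 19 was 1.97. The sum of the list was 418 to 429 TPM in DMSO, 363 to 430 TPM at 24 h and 4058 to 4219 TPM at 96 h. Acta2 and Tagln, smooth muscle and myofibroblast genes, made up most of it, the former at 54.5, 48.9 and 61.2 TPM and then 1198, 1133 and 1181 TPM. The collagen genes Col1a1 and Col3a1 rose to means of 183 and 20.5 TPM. Of the markers that define fibroblasts, Thy1 went from 8.28, 6.67 and 6.12 to 12.1, 12.5 and 11.7 TPM (log2 0.75, under 2-fold), Dcn from a mean of 0.154 to 1.34 TPM, and Lum and Fap were at 0.398 and 0 TPM at 96 h. The part of residual or returning feeder cells in the rise of mesenchymal genes was not tested.

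**Figure D3:**
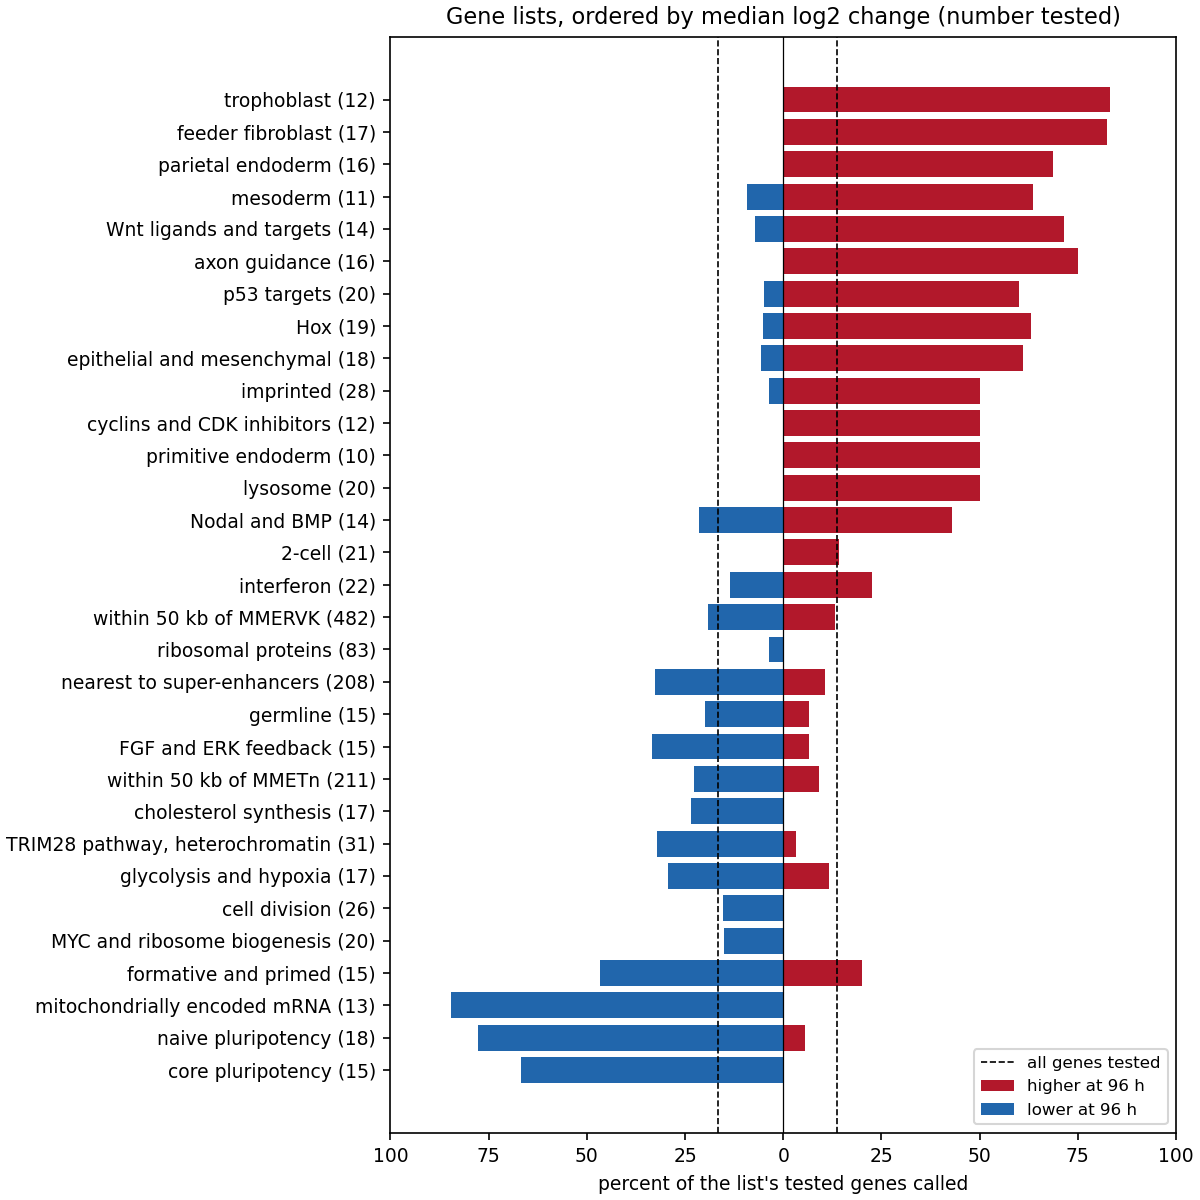
Percent of the tested genes of each list that rose (red, to the right) and that fell (blue, to the left) from 24 h to 96 h, with lists ordered by their median log2 difference and dashed lines at the shares of all genes tested, 13.7% and 16.5%. Trophoblast and feeder fibroblast lists reach 83.3% and 82.4% higher at the top, and naive and core pluripotency lists reach 77.8% and 66.7% lower at the bottom. The largest share of falls, 84.6%, is in the list of mitochondrially encoded mRNAs.

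Of the 12 largest rises among protein-coding genes, Acta2, Col3a1, Wnt6, Robo2 and Nrp1 are described with their groups. Actg2, a smooth muscle actin, had the largest, from 0.886, 0.655 and 0.629 to 38.9, 36.0 and 38.8 TPM (log2 4.98, SE 0.14, adjusted p = 5.4e-13). Bmp2, a bone morphogenetic protein, Ptgs2, the inducible cyclooxygenase, and Nts, a neuropeptide, were each below 0.7 TPM in the 24 h libraries and between 11.4 and 28.9 TPM at 96 h. Anxa1, a membrane-binding annexin, went from 20.6, 18.2 and 21.5 to 391, 398 and 373 TPM. Cd248, a stromal cell surface protein, rose to 82.2, 80.2 and 84.1 TPM. Of the 12 largest rises, Vnn1, a pantetheinase gene, and Robo2 had also passed both thresholds upward from DMSO to 24 h. Vnn1 was at 0.486 TPM in DMSO, at 8.14, 6.88 and 6.42 TPM at 24 h and at 147, 143 and 128 TPM at 96 h. Of the 12 largest falls, Aire, Fgf4, Myb and Tcl1 are described with other groups. The rest were Prss42, Tdrd12, Gpx2, Ooep, Nphs1, Pipox, Cnpy1 and Dok2, at log2 differences from -4.78 (Prss42) to -3.88 (Dok2).

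The genes Actg1 and Vcl, chosen after their values were seen, rose from high levels. Actg1, cytoplasmic gamma-actin, went from 1849, 1878 and 1834 to 5167, 5086 and 5113 TPM (log2 1.47, SE 0.04, adjusted p = 7e-13), although it shares sequence with other actin genes and pseudogenes and its reads could have been split between them. Vcl, the focal adhesion protein vinculin, went from 91.8, 93.9 and 103 to 314, 311 and 325 TPM (log2 1.71). Both have a CArG box in the promoter, the element that serum response factor is known to bind. The promoters, from 250 to 51 bases before the RefSeq gene start on GRCm38.p6, are shown to place the element, which is in capitals.
Actg1, chr11:120348546-120348745, minus strand: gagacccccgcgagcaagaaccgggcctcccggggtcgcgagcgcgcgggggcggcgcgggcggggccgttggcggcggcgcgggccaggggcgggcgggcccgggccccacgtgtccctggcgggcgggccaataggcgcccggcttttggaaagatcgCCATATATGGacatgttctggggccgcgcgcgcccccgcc
Vcl, chr14:20929148-20929347, plus strand: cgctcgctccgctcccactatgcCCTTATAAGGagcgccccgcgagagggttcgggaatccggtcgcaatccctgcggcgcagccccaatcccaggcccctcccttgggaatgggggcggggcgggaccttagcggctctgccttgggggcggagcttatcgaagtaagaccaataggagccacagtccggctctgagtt

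Over the window from 250 bases before to 50 bases after the start, 1.81% of 27025 RefSeq promoters held a CArG box, searched on both strands as this palindromic element reads alike. Of 171 tested protein-coding genes with the box 47 rose (27.5%) and 16 fell (9.36%), against 14.8% and 13.3% of 10498 without it. The medians were 0.12 and 0.02. The rising carriers included Acta1 and Actc1, the striated muscle actins, Fhl2, a LIM domain cofactor, and Cnn2, a calponin, at log2 differences of 2.97, 2.98, 3.10 and 2.45. The octamer ATGCAAAT that POU factors such as OCT4 are known to bind was in 1.97% of promoters, and of 173 tested protein-coding genes that held it 14.5% rose and 19.1% fell, against 15.1% and 13.1% of those without. These are descriptions of letters in a window and not of bound sites.

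Of 20 p53 target genes 12 rose and 1 fell (median 1.37, and 11 of 18 separate-exon members rose). Fas, the death receptor, went from 0.899, 0.722 and 1.07 to 22.1, 21.2 and 20.2 TPM (log2 3.96), and Perp, a p53 effector in cell death and adhesion, from 33.7, 30.5 and 32.3 to 242, 239 and 230 TPM. Cdkn1a, which encodes p21, went from 116, 112 and 96.1 to 292, 291 and 291 TPM. Bax and Bbc3, death effectors of the same pathway, did not pass 2-fold, at 239 and 294 TPM and at 60.6 and 91.5 TPM as means, and Gdf15 fell.

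Of 12 cyclins and cyclin-dependent kinase inhibitors 6 rose and 0 fell, but of 6 with separate exons 2 rose. Cdkn2b, the p15 inhibitor, stood at 14.6, 13.2 and 13.8 TPM at 24 h and at 167, 161 and 152 TPM at 96 h (log2 3.48, SE 0.07, adjusted p = 2.3e-14), and its neighbor Cdkn2a went from 40.3, 33.1 and 40.2 to 251, 250 and 247 TPM. Ccnd2, a cyclin of the G1 phase, rose from 3.74, 3.86 and 4.78 to 42.6, 40.1 and 40.5 TPM. Among 26 mitosis and replication genes 4 fell over 2-fold (15.4%, near the 16.5% of all genes) and 0 rose, with a median of -0.69. Of 21 separate-exon members 4 fell. By adjusted p alone 22 of the 26 were lower, as were 7536 of all 17922 genes. Mki67, the Ki-67 antigen, went from 132, 156 and 145 to 62.9, 61.8 and 60.4 TPM (log2 -1.21), whereas Cdk1 was at 121, 156 and 138 TPM and then 150, 148 and 145 TPM, with groups that overlapped. Of 20 MYC-family and ribosome biogenesis genes 3 fell (15.0%, also near the share of all genes) and 0 rose, with a median of -0.69. Of 12 separate-exon members 2 fell, with a median of -0.38. Dkc1, the pseudouridine synthase of the ribosome and telomerase, fell from 141, 136 and 134 to 43.0, 43.0 and 47.8 TPM.

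Among the Wnt, Nodal and BMP, FGF and ERK, and LIF lists, the Wnt list held the most rises. Of 14 tested Wnt ligands, receptors and targets 10 rose and 1 fell, with a median of 1.63, and 6 of 9 separate-exon members rose. With no filter on low values the median over 16 was 1.55. Wnt6, a ligand, went from 2.73, 2.85 and 2.94 to 58.8, 62.9 and 59.6 TPM (log2 4.19, SE 0.11, adjusted p = 1.8e-13). Axin2, a feedback target of the pathway, went from 20.1, 18.8 and 19.2 to 64.3, 61.6 and 62.0 TPM, and the inhibitor Dkk1 from 0.917, 0.690 and 0.633 to 12.4, 14.5 and 14.6 TPM. Fzd5, a receptor, was the member that fell.

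Of 14 tested Nodal and BMP pathway genes 6 rose and 3 fell (median 0.74), and of 11 separate-exon members 4 rose and 3 fell. With no filter on low values the median over 15 was 0.54. The ligands Bmp2 and Bmp4 rose, the latter from 4.14, 4.01 and 4.86 to 34.5, 32.8 and 33.2 TPM, and so did Id3, an inhibitor of basic helix-loop-helix factors and a target of BMP signaling, from 32.3, 29.4 and 38.2 to 258, 257 and 277 TPM. Id1 and Id4, related inhibitors, did not pass 2-fold (log2 0.94 and 0.54). Nodal and its targets and inhibitors Lefty1 and Lefty2 were the 3 that fell, by 1.09, 2.07 and 2.04. Of 15 FGF receptors and ERK feedback genes 5 fell and 1 rose, and of 10 separate-exon members 5 fell and 0 rose. Spry4 and Etv5, readouts of ERK activity, fell by 1.83 and 1.94 but had done so before 24 h too, from DMSO means of 36.3 and 122 TPM to 24 h means of 8.40 and 61.6 TPM. In the LIF pathway, which holds these cells in self-renewal, 3 of 10 genes rose and 2 fell, and of 6 separate-exon members 2 rose and 1 fell. Lif, the receptor chain Il6st and Junb rose by 1.67, 1.36 and 1.46, Socs3 did not pass 2-fold (log2 0.92), and Socs2 and the kinase gene Pim1 fell by 2.45 and 1.26.

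Of 28 tested imprinted genes 14 rose and 1 fell (median 1.04, and 7 of 13 separate-exon members rose). With no filter on low values the median over 30 was 0.89. Igf2, the fetal growth factor, went from 185, 158 and 168 to 955, 962 and 854 TPM (log2 2.44), and Peg10, a retrotransposon-derived gene, from 247, 241 and 249 to 1451, 1501 and 1455 TPM. Mest, a paternally expressed gene, was at 0.442 TPM in DMSO, at 7.36, 5.01 and 5.55 TPM at 24 h and at 59.3, 62.5 and 67.0 TPM at 96 h, but Copg2 overlaps it on the other strand. Cdkn1c, a maternally expressed inhibitor of cyclin-dependent kinases, rose from 60.8, 50.8 and 54.3 to 245, 244 and 231 TPM. In 1 domain Dlk1 rose by 1.65, while Meg3, Rian and Mirg, noncoding RNAs of the same region, were at -0.99, -0.53 and -0.87. None of these noncoding RNAs passed 2-fold. The median was -0.91 over 489 tested lincRNAs and -0.94 over 730 noncoding genes with separate exons. The part of library preparation or mapping in these noncoding values was not tested.

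Of 18 axon guidance genes 16 were tested, of which 12 rose and 0 fell (median 1.57, and 11 of 15 separate-exon members rose). With no filter on low values the median over 18 was 1.34. Robo2, a receptor for Slit proteins, went from 0.953, 1.16 and 1.58 to 39.4, 43.2 and 35.3 TPM and its ligand gene Slit2 from 1.13, 1.39 and 1.19 to 9.37, 8.51 and 8.92 TPM. Nrp1, a receptor for semaphorins and VEGF, went from 0.709, 0.366 and 0.581 to 24.9, 23.9 and 23.0 TPM. Of 39 Hox genes 19 were tested, 12 of them rose and 1 fell, and 8 of 14 separate-exon members rose. Hoxb9, a posterior member, rose from 0.828, 1.03 and 1.07 to 21.6, 21.7 and 20.6 TPM, and Hoxd9 reached 8.64, 7.87 and 8.10 TPM. Because the filter could be passed through the 96 h libraries alone, the other 20 Hox genes, all below it, belong beside that count, and with no filter the median over 39 was 0.92 against 1.28 over the 19. Of 20 lysosomal genes 10 rose and 0 fell (median 0.93), with 5 of 9 separate-exon members higher. Ctsd, the protease cathepsin D, went from 151, 132 and 134 to 704, 690 and 678 TPM and the membrane protein gene Lamp1 from 244, 209 and 210 to 605, 621 and 603 TPM.

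**Figure D4:**
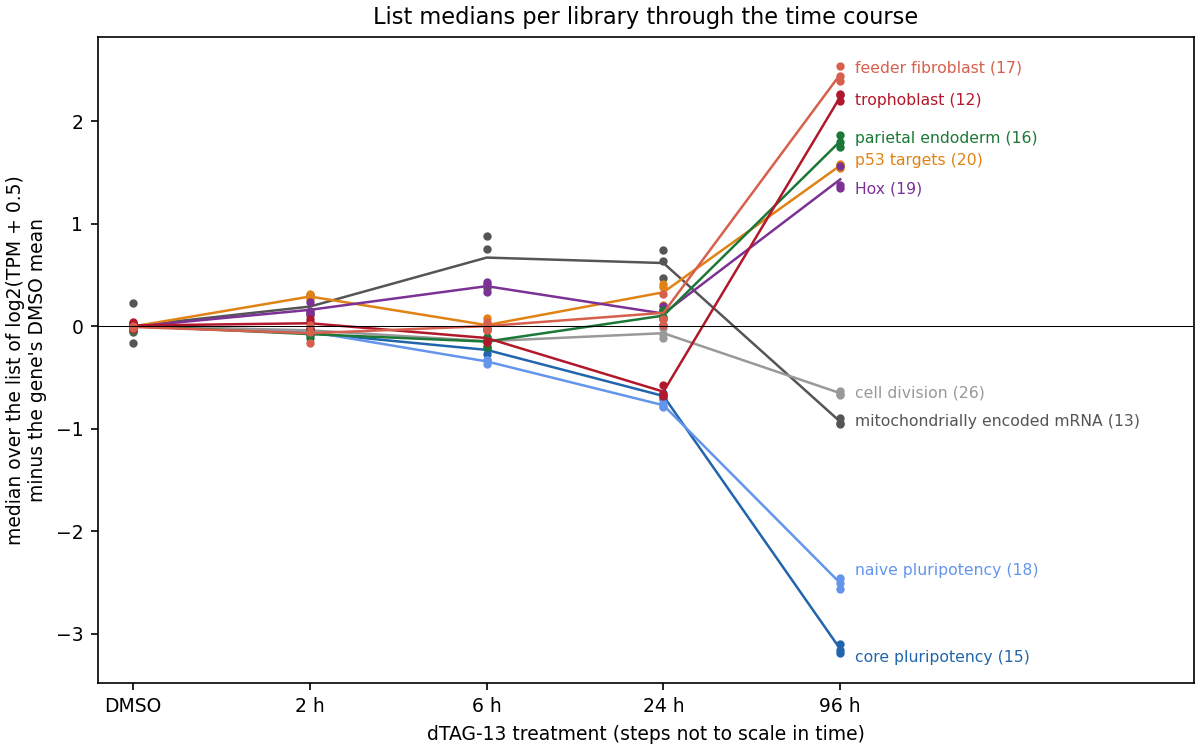
Median over the tested genes of each list of log2(TPM + 0.5) minus the gene's DMSO mean (y axis), with points for the 15 libraries and lines through the group means, by length of dTAG-13 exposure (x axis, steps not to scale in time). Core pluripotency genes are at -0.71 to -0.65 at 24 h and at -3.19 to -3.10 at 96 h, and trophoblast genes at -0.68 to -0.58 and at 2.19 to 2.26.

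StringTie values of a microRNA gene in mRNA libraries report precursor or host transcripts and not the mature RNA, and their levels were low. Of 229 microRNA genes tested 12 rose and 90 fell (39.3%), with a median of -0.72. In the Mir290 to Mir295 cluster on chromosome 7, the main microRNA locus of mESCs, 5 of 6 tested members fell, and the summed level was 56.3 to 120 TPM in DMSO, 18.7 to 31.4 TPM at 24 h and 0.00191 to 1.11 TPM at 96 h. Mir295 read 6.64, 10.4 and 12.4 TPM at 24 h and was listed at 0 in the 3 libraries of 96 h, and Mir291b went from 5.79, 6.72 and 6.40 to 0.00735, 0 and 0 TPM. In the Mir302 and Mir367 cluster 2 of 5 fell (median -0.06), near the share of all microRNA genes, Mir302c not in every fit with 1 library left out, and in the Mir106a and Mir363 cluster 3 of 6. Mir363 went from 19.8, 33.4 and 27.9 to 1.22, 2.69 and 2.71 TPM, and Mir17hg, the host of the Mir17 to Mir92 cluster, fell by 2.41 on the log2 scale to 5.52, 5.24 and 5.35 TPM. The mature RNAs of 7 loci that fell, from RefSeq on GRCm38.p6, are shown for comparison of their seeds within and between clusters. Capitals mark the seed, bases 2 to 8.
miR-291b-3p, chr7:3219529-3219550, plus strand: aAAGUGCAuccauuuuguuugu
miR-294-3p, chr7:3220691-3220712, plus strand: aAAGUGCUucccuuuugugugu
miR-295-3p, chr7:3220815-3220837, plus strand: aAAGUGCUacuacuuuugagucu
miR-302b-3p, chr3:127545275-127545297, plus strand: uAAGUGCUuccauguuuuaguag
miR-302c-3p, chr3:127545406-127545427, plus strand: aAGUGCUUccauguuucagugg
miR-363-3p, chrX:52741697-52741718, minus strand: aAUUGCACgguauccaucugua
miR-92a-3p, chrX:52741854-52741874, minus strand: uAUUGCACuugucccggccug

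The seed AAGUGCU was common to miR-294-3p, miR-295-3p and miR-302b-3p, from chromosomes 7 and 3. The seed AUUGCAC was common to miR-363-3p and to miR-92a-3p, a member of the same cluster, whose precursor Mir92-2 read 3.33, 11.3 and 8.48 TPM at 24 h and 0, 0.459 and 0.142 TPM at 96 h. Falls were called in 13.5% of protein-coding genes but in 77.1% of 170 snoRNA genes, 51.8% of 247 TEC genes (unclassified transcripts), 46.6% of 489 lincRNAs and 30.2% of 354 antisense genes. Of 730 noncoding genes with separate exons 47.5% fell and 10.1% rose (median -0.94). The part that library preparation or mapping had in the noncoding falls, microRNA loci included, was not tested.

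**Figure D5:**
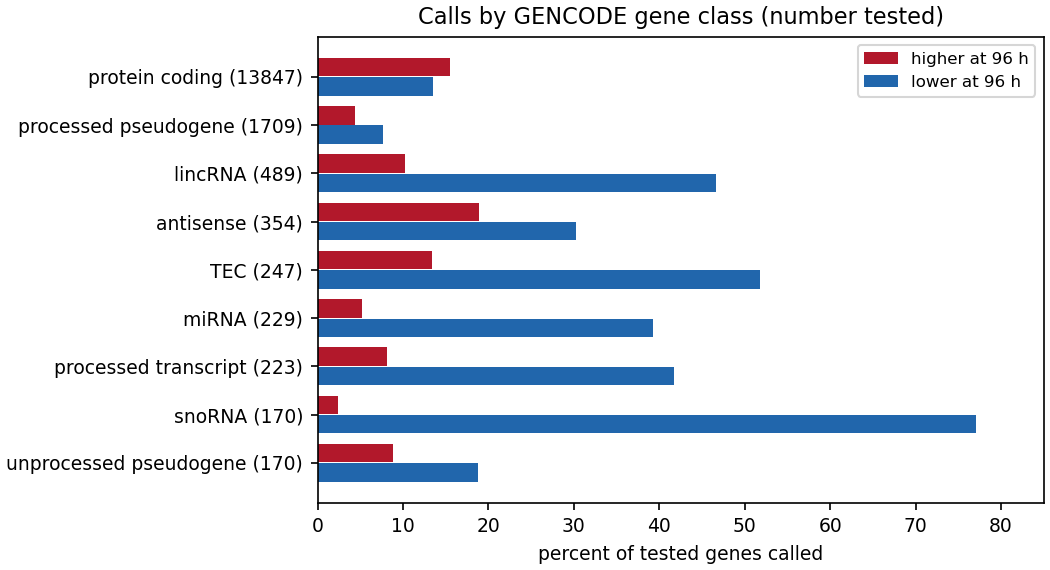
Share of tested genes that rose and that fell from 24 h to 96 h (percent, x axis) for each annotated gene class with at least 100 tested genes, the number of which is in brackets. Among protein-coding genes 15.5% rose and 13.5% fell, whereas 46.6% of lincRNAs and 77.1% of snoRNAs fell.

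Of 13 mitochondrially encoded mRNAs 11 fell and 0 rose, with a median of -1.46, and 2 of 3 with separate exons fell. mt-Co1, a cytochrome oxidase subunit, went from 24603, 27994 and 25799 to 7251, 6926 and 6968 TPM, whereas mt-Nd6, the member on the light strand, was at 1067, 1304 and 1445 TPM and then 2118, 2007 and 1956 TPM (log2 0.68, under 2-fold). Mitochondrial genes took 9.39% to 11.1% of all TPM at 24 h, 3.65% to 3.76% at 96 h and 6.00% to 7.90% in DMSO. This shift in share raises every other gene a little, and its effect is given under the alternatives.

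Genes nearest to super-enhancers fell more often than they rose. Of 208 active genes nearest to the 231 super-enhancers that the study used, 68 fell (32.7%) and 22 rose (10.6%), with a median of -0.21, against 13.5% and 15.5% of all protein-coding genes. Over the separate-exon genes 48 of 151 fell and 14 rose. The genes nearest to super-enhancers had to exceed a mean of 1 TPM in DMSO, and the protein-coding genes set beside them did not. With a mean filter of 5 TPM, 62 of 194 fell and 20 rose, against 1472 and 1491 of 11927 genes of all classes. Those that fell included Fgf4, Esrrb, Dppa5a, the alkaline phosphatase gene Alpl, from 122 to 12.3 TPM as means, and Myb, a proto-oncogene, from 17.9, 17.7 and 16.1 to 0.466, 0.295 and 0.489 TPM. Those that rose included Hspb8, a small heat shock protein gene, from 44.9 to 353 TPM, the tight junction gene Cldn4 from 187 to 649 TPM and Igfbp2 from 629 to 2236 TPM as means. The 4 examples outside the fixed lists were chosen after their values were seen.

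Genes near full-length elements of the retroviral families MMERVK and MMETn were counted, and those near IAP elements were not analysed here. Of 318 protein-coding genes that start within 50 kb of a full-length MMERVK element 47 rose (14.8%) and 55 fell (17.3%), and of 132 near an MMETn element 16 rose (12.1%) and 27 fell (20.5%), against 15.5% and 13.5% of all protein-coding genes. Over separate-exon genes 35 of 227 rose and 36 fell near MMERVK, and 11 of 93 rose and 21 fell near MMETn. Vnn1, near an MMETn element, is given above, Serpinb9b, a protease inhibitor, rose from 3.61 to 69.8 TPM, and near MMERVK elements Pcdh18, a protocadherin, rose from 1.83 to 40.3 TPM as means. Cthrc1, a secreted collagen-related protein near an MMETn element, had climbed from 16.5 TPM in DMSO to 241 TPM at 24 h and fell to 85.8 TPM, and Zfp773, a zinc finger gene near an MMERVK element, went from 26.9 TPM at 24 h to 1.61 TPM as means. These 4 were chosen after their values were seen. Of 21 genes of the 2-cell program, part of which is driven from retroviral repeats, 3 rose and 0 fell (14.3%, median 0.60), close to the share of all genes, and 2 of 18 separate-exon members rose. The count was 1 with a pseudocount of 1 and 1 with TPM rescaled without mitochondrial and rRNA genes. Zscan4d stood at 26.2, 29.3 and 30.4 TPM at 24 h and at 54.3, 63.7 and 56.5 TPM at 96 h, but the near-identical Zscan4 copies can exchange reads.

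Nascent RNA had been sampled in other libraries of the series, by TT-SLAM-seq, which labels and enriches newly made RNA, up to 24 h. In these, 454 of 13357 genes differed between 24 h and DMSO (3.40%), 333 upward and 121 downward, or 141 and 241 with each library centred on its median. The median over all genes measured in both assays was 0.21, and of 10340 genes measured in both assays 1.69% were higher and 0.600% lower. Of the 62 genes with lower nascent RNA at 24 h, 31 (50.0%) fell afterwards in steady-state RNA and 2 rose (3.23%), against 15.9% and 9.84% of all genes measured in both. With centred nascent libraries, 65 of 140 fell (46.4%) and 6 rose. Those 31 were 1.89% of the 1643 falling genes measured in both. Fgf4 (nascent log2 -1.09, limma adjusted p = 9.9e-05), Mycn (-2.14) and Mir295 (-1.36) were among them. So were other microRNA loci, such as Mir291b, Mir293, Mir294 and Mir363, and Gm42418, the lincRNA opposite the rRNA gene described above. The 31 were not counted over protein-coding or separate-exon genes alone. The part of library preparation or mapping in the 50.0% was not tested. Pou5f1 was not among the 31, at -0.12 (limma adjusted p = 0.52), and neither was Sox2, which missed 2-fold at -0.96.

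Of the 175 genes with higher nascent RNA at 24 h, 32 (18.3%) rose afterwards and 47 (26.9%) fell, or 9 (14.8%) and 21 (34.4%) of 61 with centred nascent libraries. The 32 were 3.15% of the 1017 rising genes measured in both, and included Igf2 (nascent log2 1.01), the collagen chaperone gene Serpinh1 (1.30) and Junb (1.29). Serpinh1 went from 190, 172 and 193 TPM at 24 h to 1108, 1104 and 1134 TPM at 96 h. Among those that instead fell were Mki67 and Txnip, the thioredoxin-interacting protein, which had climbed from 202 TPM in DMSO to 619, 540 and 480 TPM at 24 h and was at 217, 210 and 197 TPM at 96 h.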

How the data were processed

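RNA was made with a column kit and DNase treatment, and libraries with a stranded mRNA capture kit. The authors trimmed reads with cutadapt (2.4), aligned them to mm10 with STAR (2.7.5a) and assembled them with StringTie (2.0.6), and the deposited tables give TPM and coverage per gene, of which the coverage, a signal of mean read depth, served here only to estimate relative depth. The deposited TT-SLAM-seq tables give FPKM per gene. No read counts entered, so no count test was run and intervals from depth were not given.

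Gene identifiers were joined over 15 RNA-seq libraries. TPM were tested as log2(TPM + 0.5) with limma (3.58.1, R 4.3.3), 1 coefficient per group and a mean-dependent prior, with genes kept where 3 or more libraries reached 1 TPM. FPKM of 12 nascent libraries were tested likewise, where 3 or more reached 0.5 FPKM. The fit was tested on simulated data. Alternatives were the pseudocount, the filter, the scaling, the libraries fitted, the size limit, a replicate block and leaving out each library, and 2 were added after the data were seen.

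Genes were named by rule. These were, in each direction, the 12 protein-coding genes with the largest called change and no overlap between libraries, members of the gene lists, the active protein-coding genes nearest to 231 super-enhancers, and genes starting within 50 kb of 780 MMERVK or 445 MMETn full-length elements. The members and lists were chosen with earlier results of these data known. Coverage of exons by other genes came from the mm10 gene annotation, and sequences from RefSeq (GRCm38.p6), which held 164 of the 229 tested microRNA genes.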

Additional observations from a re-analysis of the deposited data

How the results depend on the processing

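Against 2451 rising and 2960 falling genes as reported, a mean filter of 5 TPM gave 1491 and 1472 of 11927 genes, the adjusted p without a size limit 6701 and 7536, and the 8820 separate-exon genes 1392 and 1242, in the first and last case with fewer genes tested. A pseudocount of 0.1 gave 2669 and 3383, a pseudocount of 1 2210 and 2407, no filter 2745 and 3198, centring each library on its median 2501 and 2903, the 6 libraries alone 2442 and 2763, and TPM rescaled without mitochondrial and rRNA genes, chosen after the data were seen, 2206 and 3283 with the median shifted by -0.08. Leaving out 1 library at a time gave 2445 to 2515 rises, 2888 to 3066 falls and, for 24 h against 6 h, 1397 to 1504 changes. Replicates with the same number did not deviate together across groups (r = 0.033, 0.012 and -0.012), and fitted with the replicate number as a block, the counts were 2451 and 2961, and 1440 for 24 h against 6 h. Of 325 genes followed, 316 were called and 30 of these lost the call in at least 1 alternative, 14 of them on leaving out 1 library. Mir290a, not called, turned its sign without the third 24 h library (0.0154) and without the third 96 h library (0.043), in a range of -0.80 to 0.043 on leaving out 1 library. The causes were not tested. Files without read counts leave the precision of single values at low TPM unknown.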

Other observations

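Of 17 glycolysis and hypoxia genes 5 fell and 2 rose, with a median of -0.64 against -0.07 over all genes, and 3 of 9 separate-exon members fell. Pdk1, the kinase that restrains pyruvate dehydrogenase, went from a mean of 116 TPM at 24 h to 24.3 TPM at 96 h (log2 -2.23), and Hk2, a hexokinase, from 108 to 32.6 TPM. The glucose transporter gene Slc2a1 rose instead, from 367 to 946 TPM. Of 17 cholesterol synthesis and uptake genes 4 fell and 0 rose (23.5%, median -0.31, and 3 of 10 with separate exons), against 16.5% lower of all genes, among them Insig1, the sterol-sensing anchor, from 132 to 42.0 TPM. Their sum had climbed before, from 1219 to 1229 TPM in DMSO to 2017 to 2181 TPM at 24 h, and was 1574 to 1638 TPM at 96 h.

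Of 18 amino acid and endoplasmic reticulum stress genes 3 rose (16.7%) and 4 fell (22.2%), against 13.7% and 16.5% of all genes. Their median was 0.07, and of 14 with separate exons 3 rose and 3 fell. Slc7a11, the cystine transporter, went from a mean of 0.0849 to 5.77 TPM and Atf3, a stress factor, from 8.75 to 45.5 TPM, whereas Psat1, an enzyme of serine synthesis, fell from 197 to 58.1 TPM. Hspa5, the endoplasmic reticulum chaperone, went from 367 to 744 TPM (log2 1.02) and lost its call without 1 of the 24 h libraries.

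Of 22 tested interferon-stimulated genes 5 rose (22.7%) and 3 fell (13.6%), against 13.7% and 16.5% of all genes. Their median was 0.26, and 0.15 over 30 with no filter on low values. Of 13 with separate exons 3 rose and 3 fell (median 0.12). Tmem173, which encodes the adaptor STING, rose from a mean of 2.79 to 15.2 TPM and Usp18 from 0.465 to 4.19 TPM, whereas Oasl2 fell from 34.2 to 11.6 TPM and Stat2 from 48.9 to 20.8 TPM. Ifnb1 and Ccl5 were at 0 TPM at 24 h and at 0.0191 and 0.0717 TPM at 96 h. Of 15 tested germline genes 1 rose (6.67%) and 3 fell (20.0%), again against 13.7% and 16.5% of all genes. Their median was -0.21, and -0.14 over 18 with no filter on low values. Of 13 with separate exons 1 rose and 1 fell (median 0.12). Mael, a piRNA pathway gene, went from 8.15 to 20.9 TPM and Hormad1, a meiotic chromosome axis gene, from 7.73 to 0.444 TPM.

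Of 15 neural genes 8 were tested, of which 3 rose and 2 fell. Their median of 0.86 was 0.28 over all 15 with no filter and 0.19 over 4 with separate exons, of which 1 rose and 1 fell. Tubb3, a neuronal tubulin, rose from a mean of 27.2 to 71.8 TPM, whereas the progenitor factors Sox1 and Olig2 fell from 5.10 to 1.08 and from 10.1 to 2.27 TPM. Pax6 was at 3.51 and 2.34 TPM and Fabp7 at 0.233 and 0.386 TPM. Of 83 ribosomal protein genes 0 rose and 3 fell (median -0.17, and 3 of 45 with separate exons), 2 of which, Rpl3l and Rpl10l, are tissue-restricted copies. Of 59 histone genes 4 rose and 4 fell, and 3 and 1 of 38 with separate exons. Hist1h1c and Hist1h2bc went from 5.26 to 27.1 and from 6.77 to 31.6 TPM. Such genes have near-identical copies and many of their transcripts lack a poly(A) tail.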
